A study of Mus musculus with 4 samples.

Results

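The 7 mouse Toll-like receptor genes Tlr1, Tlr2, Tlr4, Tlr6, Tlr7, Tlr8 and Tlr9 were followed together with the lipopolysaccharide co-receptor genes Cd14 and Ly96 and the adaptor gene Myd88. These 10 genes were taken by symbol from the 23284 gene rows of the deposited tables, and all 10 were present. RNA had been sequenced from EGFP+ cells sorted from the marrow of wild-type mice 24 h after each was given 100000 LSK cells (the Lin- Sca1+ c-Kit+ marrow fraction that holds stem and multipotent progenitor cells) of CAG-EGFP donors. The CAG promoter is active in nearly all cell types, so the EGFP sort does not select a cell type. Whether every sorted cell was of donor origin was not tested. Control recipients were untreated, and 5-FU recipients had received 5-fluorouracil (5-FU), which kills dividing cells, at 200 mg/kg intravenously 2 days before the transplant. There were 2 libraries per group, each taken as 1 recipient. The sources used here do not give strain, age or sex of the mice, nor whether donor cells were pooled.

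Toll-like receptors are membrane proteins of innate immune cells that recognise conserved parts of microbes. TLR4 binds lipopolysaccharide of gram-negative bacteria through the secreted co-receptor MD2, encoded by Ly96, while CD14 hands the lipid over. TLR2 pairs with TLR1 or TLR6 at the cell surface to bind lipoproteins, and TLR7, TLR8 and TLR9 sense nucleic acids in endosomes. MyD88 carries the signal of all of these receptors to kinases of the IRAK family. Monocytes, macrophages and dendritic cells express most of them, and stem and progenitor cells have also been described to carry some.

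The level of a gene is given in FPKM, sequenced fragments scaled to transcript length and to library size, so that genes of different length can be set side by side. Markers of the transplanted cells were present, since Kit had 65.5 to 102.8 FPKM and Cd34 115.9 to 264.3 over the 4 libraries. The labels call the samples haematopoietic stem and progenitor cells, but macrophage genes were among the highest values, with the complement gene C1qb at 4304, 4587, 2690 and 1718 FPKM in the same 4 libraries. The macrophage marker list of 20 genes summed to 25728 and 30039 FPKM in control recipients 1 and 2 and to 22244 and 11692 in 5-FU recipients 1 and 2, and none of the 20 was listed at 0 in any library. In such a mixed sample, fewer cells of a type and less RNA per cell cannot be told apart. Depth was similar, since a single read weighed 1.31 times (control recipient 1), 1.26 times (control recipient 2) and 1.07 times (5-FU recipient 1) as much as in 5-FU recipient 2.

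Each of the 9 genes that could be tested had a lower mean FPKM after 5-FU than in controls, by between 1.28-fold for Myd88 and 2.65-fold for Tlr1. Both 5-FU libraries lay below both control libraries for all 9 (this was so for 30.7% of the 11496 genes tested). A gene was tested if it reached 1 FPKM in at least 2 libraries, and Tlr9 did not. In limma with a mean-variance trend on log2(FPKM + 1), and Benjamini-Hochberg adjustment over all tested genes, 5 of the 9 fell at an adjusted p under 0.05, none rose (also none at an unadjusted p under 0.05) and 4 did not pass. Over all tested genes, 4.67% fell and 8.23% rose. Cd14, Ly96, Tlr1, Tlr2 and Tlr7 are the 5 that fell. The median log2 fold change of the 9 genes was −0.99, against −0.01 over all tested genes.

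The 5 calls were lost without either control library and under other fits. The median log2 fold change of the 9 was −1.08 without control recipient 1 and −0.99 without control recipient 2. It was −1.24 without 5-FU recipient 1 and −0.74 without 5-FU recipient 2. Each of these fits leaves a lone library in a group, and calls over all tested genes also changed in them. With all libraries, none of the 9 passed in limma without the filter on low values or without the trend. In both, 7 of the 9 had an unadjusted p under 0.05 in limma. So did 3680 of 16391 genes without the filter and 3490 of 11496 without the trend.

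**Figure D1:**
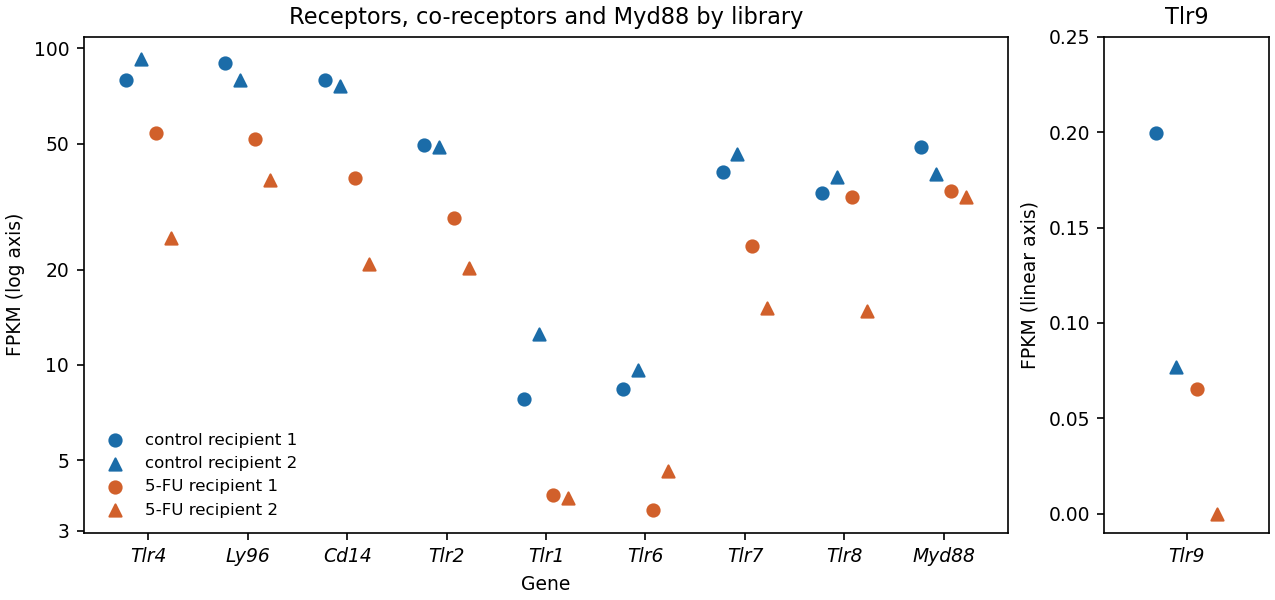
FPKM of each gene in the 4 libraries, on a log axis for 9 genes and on a linear axis for Tlr9; blue marks are control and orange marks 5-FU recipients, with circles for replicate 1 and triangles for replicate 2. Both 5-FU marks lie below both control marks for each of the 9 genes, by little for Tlr8 (33.8 against 34.9 FPKM) and by more for Cd14 (39.0 against 76.1).

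**Figure D2:**
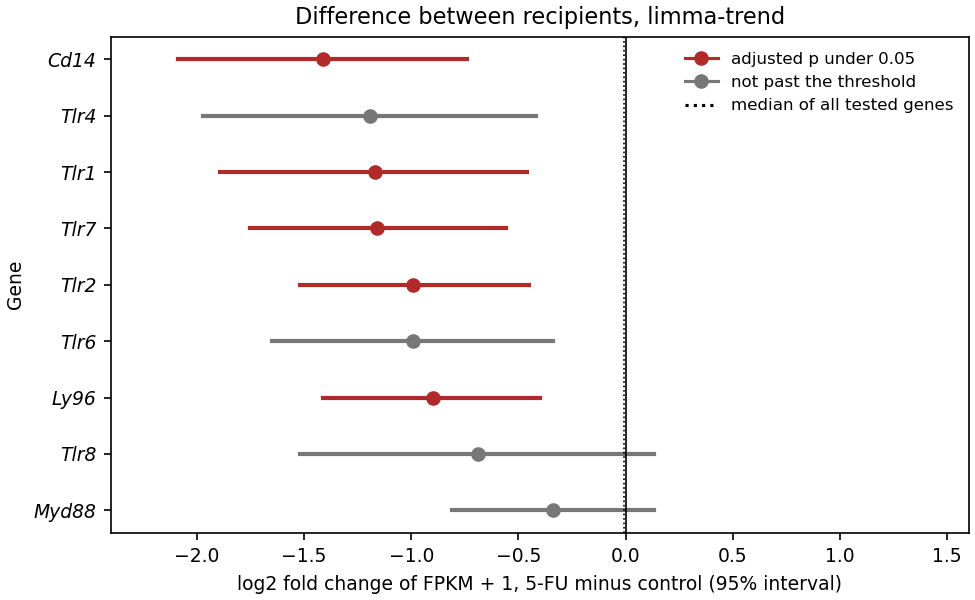
log2 fold change of FPKM + 1 (5-FU minus control) with its 95% interval from limma-trend for the 9 tested genes; red marks passed an adjusted p of 0.05 and grey marks did not. The intervals of Tlr8 and Myd88 reach above 0, and those of the other 7 genes do not.

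Promoter sequence was looked at because all 9 tested genes had negative log2 fold changes and because PU.1, the transcription factor of myeloid cells, binds a purine-rich core. Windows of 300 bases, 250 before to 50 after a transcription start, were taken from RefSeq on GRCm38.p6, the assembly to which mm10 corresponds, and 6 of the 10 genes had at least 1 (Tlr1, Tlr2, Tlr6, Tlr8, Tlr9 and Myd88). The letters GAGGAA, searched on both strands (TTCCTC is the other strand), were in 3 of their 8 windows, against 28.3% of the 32851 windows in the table. A match is a description of letters and not a binding site. Tlr2 is shown as a gene that fell and whose window lacks the letters, Tlr1 as one that fell and has them 23 bases before 1 of its 2 listed starts. The window of its other start lacks them. Tlr8, which did not pass the test, has them 77 bases before the start on the other strand. Tlr9, nearly silent here, holds them in 2 places, 112 bases before the start and, on the other strand, 12 bases after it. The windows lie at chr3:83841559-83841858 (minus strand) for Tlr2, chr5:64933509-64933808 (minus) for Tlr1, chrX:167264280-167264579 (minus) for Tlr8 and chr9:106222348-106222647 (plus) for Tlr9. The last 30 bases of the window occur in a GENCODE M21 transcript of the same gene for Tlr2, Tlr8 and Tlr9 but not for Tlr1. Capitals mark the letters.
Tlr2: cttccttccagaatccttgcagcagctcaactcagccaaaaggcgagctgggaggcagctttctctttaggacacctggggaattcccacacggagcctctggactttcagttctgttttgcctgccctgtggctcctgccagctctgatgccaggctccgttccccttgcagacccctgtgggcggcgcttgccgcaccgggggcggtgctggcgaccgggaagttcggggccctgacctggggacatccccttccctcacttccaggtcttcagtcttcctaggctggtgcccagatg
Tlr1: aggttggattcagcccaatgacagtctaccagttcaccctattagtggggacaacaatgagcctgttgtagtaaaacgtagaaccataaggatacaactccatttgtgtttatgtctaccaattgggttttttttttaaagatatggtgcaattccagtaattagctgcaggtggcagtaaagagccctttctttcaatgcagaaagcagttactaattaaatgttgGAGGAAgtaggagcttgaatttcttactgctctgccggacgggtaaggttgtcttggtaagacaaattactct
Tlr8: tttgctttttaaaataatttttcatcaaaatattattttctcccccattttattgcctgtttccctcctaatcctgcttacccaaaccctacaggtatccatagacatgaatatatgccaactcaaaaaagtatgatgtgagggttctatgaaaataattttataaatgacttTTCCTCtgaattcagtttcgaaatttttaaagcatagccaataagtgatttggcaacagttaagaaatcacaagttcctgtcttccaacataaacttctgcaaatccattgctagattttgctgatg
Tlr9: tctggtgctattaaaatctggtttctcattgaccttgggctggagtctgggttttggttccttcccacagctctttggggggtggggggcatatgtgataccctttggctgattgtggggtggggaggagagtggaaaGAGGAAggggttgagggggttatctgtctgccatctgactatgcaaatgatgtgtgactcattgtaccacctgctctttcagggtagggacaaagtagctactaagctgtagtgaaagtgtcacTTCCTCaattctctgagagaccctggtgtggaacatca

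The lipopolysaccharide complex had the 3 highest levels of the group in both control libraries and in 5-FU recipient 1. Cd14, the lipid transfer co-receptor, had 79.6 and 76.1 FPKM in control recipients 1 and 2, against 39.0 and 20.9 FPKM after 5-FU. The control pair agreed closely and both 5-FU libraries were below it, the second by more. Means were 77.8 ± 2.48 and 29.9 ± 12.8 FPKM (SD, n = 2 and 2), or −1.41 on the log2 scale (SE 0.29, limma-trend adjusted p = 0.024), the largest log2 difference among the 9 tested genes. The gene lies on chromosome 18 at 36725064 to 36726815 (gene coordinates are RefSeq's on GRCm38.p6). Ly96, which encodes MD2 and lies on chromosome 1 at 16688456 to 16709605, had 89.6 and 79.3 FPKM in the control pair, against 51.8 and 38.3 after 5-FU. It fell by 0.90 on the log2 scale (SE 0.22, adjusted p = 0.036 in limma-trend).

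Tlr4, the signalling receptor of the complex, on chromosome 4 at 66827551 to 66846581, had 79.6 and 92.3 FPKM in the control pair, against 54.0 and 25.2 after 5-FU. The groups did not overlap, but the 5-FU libraries differed from each other 2.14-fold, more than the control libraries did. The log2 fold change was −1.19 (SE 0.33, 95% interval −1.97 to −0.42) and its adjusted p of 0.056 in limma-trend missed the threshold. It passed without 5-FU recipient 1 at −1.73 (adjusted p = 0.00015) and without 5-FU recipient 2 at −0.66 (adjusted p = 0.031), where the lone library is assumed to vary like the control pair. The ratio of Tlr4 to Ly96 level was 0.888 and 1.16 in control and 1.04 and 0.658 in 5-FU libraries. Tlr4 per Cd14 was 1.00, 1.21, 1.38 and 1.21 in the same order. Both ratios overlapped between groups.

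Tlr2, which binds lipoproteins and lies on chromosome 3 at 83836272 to 83841824, had 49.5 and 48.8 FPKM in the control pair, against 29.1 and 20.2 after 5-FU. Control values were nearly equal and the 5-FU values lay well below. The log2 fold change was −0.99 (SE 0.23, adjusted p = 0.034 in limma-trend). By the level of 1 read and its single annotated transcript of 3014 bases, these values correspond to about 1052, 1080, 756 and 560 reads, and reads of an amplified library are not independent molecules. The window of Tlr2 printed above holds no GAGGAA.

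The partners of Tlr2 were present at lower levels. Tlr1, which forms the receptor for triacylated lipoproteins, had 7.83 and 12.5 FPKM in the control pair, against 3.89 and 3.80 after 5-FU. Here the spread lay within the control pair, and the log2 fold change of −1.17 (SE 0.31) passed at an adjusted p of 0.047 in limma-trend. It was −1.48 without control recipient 1 and −0.87 without control recipient 2, and Tlr1 also missed the threshold after quantile or TPM scaling (adjusted p = 0.058 and 0.053 in limma-trend). Tlr6, which forms the receptor for diacylated lipoproteins, had 8.38 and 9.63 FPKM in the control pair, against 3.48 and 4.62 after 5-FU. It was lower by 0.99 on the log2 scale with a 95% interval of −1.65 to −0.34, and its adjusted p of 0.057 in limma-trend did not pass. Tlr2 exceeded Tlr1 3.90- to 7.48-fold and Tlr6 4.38- to 8.36-fold in every library, while the ratio of Tlr1 to Tlr6 stayed between 0.822 and 1.30, with no order between the pair.

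Tlr1 and Tlr6 are adjacent on chromosome 5, at 64924680 to 64933600 and 64953092 to 64970942, with 19491 bases between them. Their transcripts share sequence. Of the 75-base words in GENCODE transcripts, 75 bases being the read length, 340 occur in both, which is 10.3% of those of Tlr1 and 9.25% of those of Tlr6. Reads from that stretch could be given to either gene, so the values may be partly shared. None of the other 65 pairs among the 12 mouse Toll-like receptors shared such a word.

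Among the endosomal receptors, Tlr7 and Tlr8 were well expressed and Tlr9 was near 0. Tlr7, a receptor for single-stranded RNA, had 40.8 and 46.3 FPKM in the control pair, against 23.7 and 15.1 after 5-FU. Both 5-FU values lay below the control values, and Tlr7 fell by 1.16 on the log2 scale (SE 0.26, limma-trend adjusted p = 0.029). Tlr8, its neighbour on chromosome X, had 34.9 and 39.1 FPKM in the control pair, against 33.8 and 14.8 after 5-FU. 5-FU recipient 1 was close to the controls and 5-FU recipient 2 was not, a 2.28-fold gap within the group. The log2 fold change of Tlr8 was −0.69 with a 95% interval of −1.52 to 0.13 (adjusted p = 0.22 in limma-trend), and it was −0.12 without 5-FU recipient 2 and −1.26, then past the threshold, without 5-FU recipient 1 (adjusted p = 0.0013). Tlr7 lies at 167303380 to 167330574 and Tlr8 at 167241123 to 167264329, with 39050 bases between. The level ratio of Tlr7 to Tlr8 was 1.17 and 1.18 in control and 0.701 and 1.02 in 5-FU libraries.

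Tlr9, which recognises unmethylated CpG DNA and is known from plasmacytoid dendritic cells and B cells, lies on chromosome 9 at 106222598 to 106226876. It had 0.199 and 0.0767 FPKM in the control pair and 0.0653 in 5-FU recipient 1, and was listed at 0 in 5-FU recipient 2. Once each value is divided by the weight of a single read in its library, the ratios are those of 5, 2, 2 and 0 reads, within 5%. So few reads leave the size of any difference unresolved. In the fit without the filter on low values its adjusted p was 0.49 in limma-trend (log2 fold change −0.14, SE 0.10). Of 7 tested markers of plasmacytoid dendritic cells 1 fell, none rose and 4 were positive. The 2 of highest level were Bst2, at 56.9 and 73.8 FPKM in the controls and 133.2 and 52.8 after 5-FU, and Tcf4, at 20.2, 17.4, 15.7 and 23.4 in the same order. Siglech, a defining marker of these cells picked out after its values were seen, was at 1.07, 1.54, 0.0487 and 0.455 FPKM. Their list summed to 101.9 and 112.8 FPKM in the control and to 167.1 and 95.4 in the 5-FU libraries. Of 10 tested B cell markers 7 fell, Cd79b among them with 314 and 326.7 against 171 and 154.5 FPKM.

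Myd88, the adaptor shared by these receptors, on chromosome 9 at 119335934 to 119340018, had the smallest difference of the 9. It had 48.6 and 40.2 FPKM in the control pair, against 35.6 and 33.9 after 5-FU. The log2 fold change was −0.34 (SE 0.20, 95% interval −0.81 to 0.13, adjusted p = 0.28 in limma-trend). By level, Myd88 took place 5 and 6 of the 10 genes in control recipients 1 and 2 and place 4 and 2 in 5-FU recipients 1 and 2. The level ratio of Myd88 to Tlr4 was 0.611 and 0.435 in control and 0.658 and 1.35 in 5-FU libraries. Whether its change differed from those of the receptors was not tested.

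Within a library the order of levels was similar throughout. Ly96, Tlr4 and Cd14 took the first 3 places in both control libraries and in 5-FU recipient 1. Their control values, 76.1 to 92.3 FPKM, overlapped, so they could not be ordered among themselves. In 5-FU recipient 2 the order was Ly96, Myd88, Tlr4, Cd14. Tlr2, Myd88, Tlr7 and Tlr8 formed a middle group, between 34.9 and 49.5 FPKM in controls, whose members changed places between libraries. Tlr1 and Tlr6 followed and Tlr9 was last in all 4 libraries.

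Macrophage markers moved in the same direction. Of the 20, 3 fell in limma-trend (12 were lower at an unadjusted p under 0.05), none rose, and 19 were negative, with a median log2 fold change of −0.94. Their geometric mean (of FPKM + 1) was 390 and 427 in the control pair, against 327 and 178 after 5-FU in recipients 1 and 2. Csf1r, the macrophage growth factor receptor, was 1 of the 3 that fell, from 204.3 and 225.6 FPKM to 116.4 and 67.2. The markers of highest mean over the 4 libraries were Vcam1, an adhesion molecule, with 5037 and 5245 against 3756 and 1882 FPKM, and the iron exporter gene Slc40a1 with 3170 and 4100 against 4377 and 2380. 5-FU recipient 2 was the lower 5-FU library both for the markers and for Tlr4, Tlr8, Cd14, Tlr7, Tlr2 and Ly96. Tlr6 was higher in that library, and Tlr1 and Myd88 nearly equal in the 5-FU pair. How far the markers' decrease accounts for that of the receptors was not tested. Without 5-FU recipient 1 the median was −1.24 for the 9 genes and −1.37 for the markers, and without 5-FU recipient 2 it was −0.74 and −0.50. The marker calls did not hold without control recipient 1 or without control recipient 2, where the marker median was −0.96 and −0.84.

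Divided by that geometric mean in the same library, 4 of the 9 genes had both 5-FU values below both control values, as did 6.37% of all tested genes. Divided by the summed FPKM of the markers it was 3 of the 9, Tlr2 no longer among them, and 5.65% of all tested genes. Both divisors were lower in both 5-FU libraries, so division raises every 5-FU value relative to control. The shares of all genes are therefore below the undivided 30.7%. Whether the receptors fell by more than the markers was not tested. Cd14 was at 0.204 and 0.178 per unit of marker level in control and at 0.119 and 0.117 in 5-FU libraries. Tlr4 was at 0.204 and 0.216 against 0.165 and 0.141, and Tlr7 at 0.105 and 0.108 against 0.0724 and 0.0847. For Tlr2 the gap was negligible, with 0.127 and 0.114 against 0.0888 and 0.113. The other 5 genes overlapped, among them Ly96 with 0.230 and 0.186 against 0.158 and 0.215. Set against Csf1r alone, chosen after its values were seen, Tlr4 was at 0.389 and 0.409 in control and 0.464 and 0.375 in 5-FU libraries, which overlap. Cd14 per Csf1r was 0.389 and 0.337 against 0.335 and 0.311, which barely part.

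**Figure D3:**
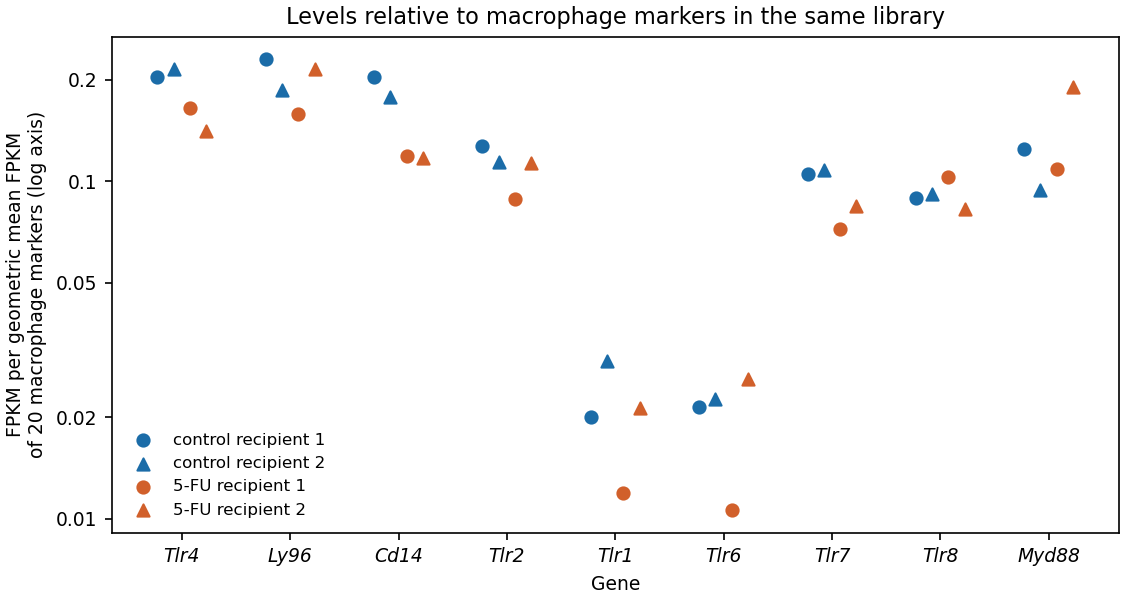
FPKM of the 9 tested genes divided by the geometric mean of 20 macrophage markers in the same library, on a log axis; blue marks are control and orange marks 5-FU recipients, circles replicate 1 and triangles replicate 2. Cd14 (0.119 and 0.117 in 5-FU against 0.204 and 0.178 in control libraries) keeps a clear gap, and Ly96, Tlr1, Tlr6, Tlr8 and Myd88 overlap.

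Markers of other cells were read alongside. Of 13 tested neutrophil markers 6 fell and none rose, with a sum of 12337 and 9865 FPKM in the control and of 3786 and 3538 in the 5-FU libraries, led by S100a8 and S100a9. Among 10 tested monocyte markers Chi3l3 (Chil3) fell, Ccr2 rose and 8 did not pass. In sign 7 of the 10 were negative, and the sum was 386.5 and 468.7 against 259.5 and 223.7 FPKM. Ccr2, the receptor of inflammatory monocytes, was at 3.58 and 4.96 against 10.7 and 17.6 FPKM. Ly6c2, another marker of these monocytes, was at 57.5 and 98 against 33.98 and 45.02 FPKM and did not pass (adjusted p = 0.07 in limma-trend). Their values were seen before these genes were chosen. None of 6 tested markers of conventional dendritic cells passed in limma-trend (3 lower at an unadjusted p under 0.05), with sums of 187.7 and 236.6 against 145.5 and 76.9 FPKM. Stem and progenitor markers had a median of −0.05, with 1 of 14 higher (Ly6a, picked out after its value was seen) and none lower. Of 9 tested erythroid markers 8 fell, and of 4 tested T and NK cell markers 1 rose and 1 fell. Without control recipient 1 and without control recipient 2, 5 and 4 neutrophil, 2 and 0 B cell and 5 and 6 erythroid markers fell, while Ccr2 and Ly6a no longer passed. The part of all these cells in the receptor values was not tested.

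Other Toll-like receptors and co-receptors had negative log2 fold changes in 6 of 7 tested genes. Of the 7, 2 fell, 1 rose and 4 did not pass, with a median log2 fold change of −0.82. The ones that fell were Cd180 and Ly86, which encode a Toll-like receptor homologue and its MD2-like partner. Ly86 had 302.1 and 319 FPKM in the control pair, against 150.5 and 100.4 after 5-FU (−1.33 on the log2 scale, SE 0.24, limma-trend adjusted p = 0.018), and Cd180 had 12.7 and 11.8 against 3.67 and 5.83 FPKM (−1.22). Cd36, a scavenger receptor that also presents lipids to the Tlr2 and Tlr6 pair, rose from 42.7 and 50.05 to 103.8 and 73.0 FPKM (0.90 on the log2 scale, SE 0.23, limma-trend adjusted p = 0.044). Tlr13, a receptor for bacterial ribosomal RNA, had 31.3 and 41.3 against 27.3 and 14.6 FPKM and did not pass (adjusted p = 0.12 in limma-trend). Tlr3 was between 1.48 and 3.79 FPKM, Tlr12 was between 0 and 1.65 (adjusted p = 0.25 in limma-trend), and Tlr5 and Tlr11 were under 1 FPKM in every library. These 4 and Tlr13 were named without regard to the rule.

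Among adaptors and genes of receptor folding and trafficking, all 12 tested were negative but only Unc93b1 fell. It encodes the chaperone that brings nucleic acid receptors to endosomes, and had 451.6 and 519.6 FPKM in the control pair, against 263.2 and 130.3 after 5-FU (−1.38 on the log2 scale, SE 0.33, limma-trend adjusted p = 0.035). The endosomal proteases that cut these receptors were abundant, with Ctss, cathepsin S, at 962.4 and 1092 against 632.5 and 420 FPKM and Ctsl, cathepsin L, at 74.3 and 81.3 against 54.8 and 37.5. Neither passed (adjusted p = 0.054 and 0.066 in limma-trend).

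The kinases and ubiquitin ligases that act next gave no call. None of 17 passed in limma-trend, although 5 were lower and none higher at an unadjusted p under 0.05. In sign 12 were negative and 5 positive, and the median was −0.17. The smallest p-values belonged to Tbk1, a kinase of the interferon branch, at −0.67 (adjusted p = 0.064 in limma-trend), Irak4, the first kinase recruited by MyD88, at −0.65 (0.096), and Irak2 at −0.76 (0.12). Irak4 had 25.5 and 20.8 FPKM in the control pair, against 15.1 and 13.6 after 5-FU.

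Of 11 transcription factors of the pathway 3 fell, none rose and 8 did not pass, with a median of −0.53. Fos and Jun, the AP-1 subunits, had log2 fold changes of −1.84 (SE 0.25, adjusted p = 0.010) and −1.74 (SE 0.34, adjusted p = 0.022) in limma-trend. Irf5, a factor activated through MyD88, had 94.3 and 101.5 FPKM in the control pair, against 63.3 and 41.2 after 5-FU (−0.92, adjusted p = 0.046 in limma-trend).

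Transcripts that the receptors are known to induce went both ways. Of 18 such cytokine and enzyme genes 9 were high enough to test, of which 2 fell, 1 rose and 6 did not pass. Ccl3 and Ccl4, chemokines that draw monocytes and lymphocytes, went from 86.3 and 76.4 to 4.40 and 5.48 FPKM (−3.80 on the log2 scale, SE 0.22, limma-trend adjusted p = 0.00038) and from 99.1 and 85.3 to 16.3 and 22.9 (−2.19). Ccl5, a chemokine of T cells and platelets, went from 10.5 and 8.92 to 30.04 and 37.6 FPKM (1.70 on the log2 scale, SE 0.23, limma-trend adjusted p = 0.011). Tnf was between 1.97 and 3.88 FPKM in all libraries and Il6 at most 0.148. Il23a, Ifnb1, Cxcl1, Csf3 and Nos2 were listed at 0 in all 4. These last 7 were named after their values were seen.

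Of 17 tested inhibitors and feedback genes 3 fell, none rose and 14 did not pass, with a median of −0.51. Zfp36, which degrades cytokine mRNA, went from 440.9 and 403.4 to 160.6 and 143 FPKM (−1.47 on the log2 scale, SE 0.20, limma-trend adjusted p = 0.010). The inhibitors of NF-kB Nfkbie and Nfkbia fell by 0.94 and 0.74 on the log2 scale. Over the 6 pathway lists, 11 of 73 tested genes fell and 2 rose, beside 4.67% and 8.23% of all genes. Without control recipient 1 and without control recipient 2 only 2 of the 73 fell in each case, Ccl3 and Ccl4. Ccl5 also passed without control recipient 1, and the other pathway calls named above did not hold without either control library. The log2 fold changes of Ctss, Ctsl and Irak2 were −1.29, −1.03 and −1.08 without 5-FU recipient 1. Without 5-FU recipient 2 they were −0.70, −0.50 and −0.44. With all libraries, Cd36 missed the threshold with a pseudocount of 0.1, quantile scaling or TPM scaling (adjusted p = 0.05, 0.074 and 0.084 in limma-trend), Unc93b1 and Irf5 with TPM scaling (0.052 and 0.06), and Irf5 and Nfkbia with a pseudocount of 0.1 (both 0.052).

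**Figure D4:**
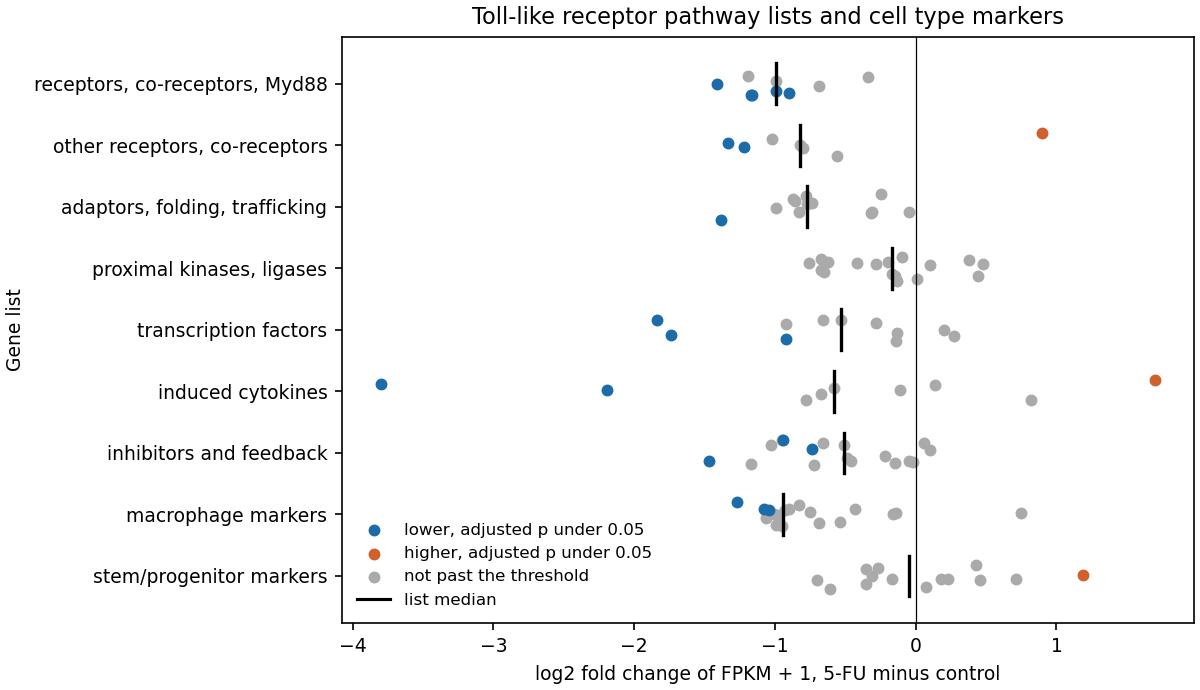
log2 fold change of FPKM + 1 (5-FU minus control) of every tested gene in 9 lists; points are genes, blue for lower and orange for higher at an adjusted p under 0.05 and grey for the rest, and bars are list medians. Receptors and macrophage markers have medians of −0.99 and −0.94, proximal kinases −0.17 and stem and progenitor markers −0.05. Medians of marker lists not drawn were −1.39 (neutrophil), −1.37 (B cell), −2.63 (erythroid) and −0.74 (conventional dendritic cell). Those of monocyte, plasmacytoid dendritic cell, and T and NK cell markers were −0.37, 0.03 and 0.08.

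The genes of most similar pattern were sought among the 174 other tested genes of the receptor, pathway and marker lists, by the root mean square difference of log2(FPKM + 1) after each gene was centred on its mean over the 4 libraries. Tlr2 was closest to the macrophage mannose receptor gene Mrc1 (0.056), which had 495.7 and 488.5 FPKM in the control pair, against 286.4 and 189 after 5-FU. Tlr7 was closest to the complement gene C1qb (0.063), Ly96 to Tlr2 (0.074), and Cd14 to Blnk (0.067), a B cell linker gene. Tlr4 was nearest to Batf3 (0.073) and Tlr8 to Tlr12 (0.058), both at lower levels. Tlr6 and Tlr1 were nearest to Zbtb46, at 0.074 and 0.16, and Myd88 to the chaperone gene Hsp90b1 (0.085). With 4 libraries many genes lie close together, and these distances are a description only.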

How the data were processed

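RNA of EGFP+ cells from 2 control and 2 5-FU recipients was sequenced as 75 bp single ends after SMART-Seq amplification, per the labels' protocols. Per the submitters' processing notes, TopHat2 2.0.13, Bowtie2 2.2.3, SAMtools 0.1.19 and Cuffnorm 2.2.1 were used on mm10. The values the authors deposited are taken as FPKM, Cuffnorm's output, while its scaling setting and the gene annotation were not given in the sources used here. Column headers of the 5-FU libraries carry another day number than their file names, and groups follow the labels. Total reads are not given. What 1 read was worth was read from genes with 1 transcript and low values, with 150 bases taken off each length, and is rough.

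The test was limma 3.58.1 under R 4.3.3 (eBayes with trend) on log2(FPKM + 1), two-sided, group as the only term. A gene entered when 2 or more of the 4 libraries reached 1 FPKM, with Benjamini-Hochberg adjustment over all 11496 genes and a threshold of 0.05. The fit had 2 residual and 5.62 prior degrees of freedom. Each library is taken as 1 recipient. The p-values rest on a variance that joins each gene's spread between these libraries with the trend over all tested genes. By the degrees of freedom the trend has the larger part. Of 208 list genes, 201 matched by symbol, 4 by a reference synonym and 3 not at all. All 10 receptor genes are described. Of each pathway list the 3 of smallest p are named, with all that passed where 4 or fewer did, and of each marker list the 2 of highest mean are candidates for naming. The genes and lists were chosen with earlier results of these data known. Alternatives were other pseudocounts, filters, scalings and variance models, the replicate number as a block, and leaving out each library. Figures were drawn with matplotlib 3.10.9.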

Additional observations from a re-analysis of the deposited data

How the results depend on the processing

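The direction of the 9 tested receptor genes held in all 135 values over 15 alternatives, and no log2 fold change of the 27 tested genes named by the rule reversed. Of 405 such gene values 313 kept their side of the threshold, 69 lost a call and 23 gained one. That no sign changed was largely fixed in advance. Filters, variance models and blocks leave a log2 fold change as it is. The groups did not overlap for any of the 27, so no pseudocount and no library left out could reverse it. Only the scalings could. The calls themselves are less stable. With no filter 3 genes were higher and 4 lower among all genes, 0 of the 9 receptor genes, and 0 pathway genes higher and 1 lower. Without the trend the counts were 548 and 299 among all genes, 0 receptor genes, and 1 and 7 pathway genes. Unadjusted p was under 0.05 for 7 of the 9 in both. Leaving out 1 library gave 88 to 2122 genes higher and 38 to 1876 lower, 0 to 7 receptor genes lower, and 0 to 3 pathway genes higher and 2 to 35 lower, where the lowest counts came without a control library and the highest without 5-FU recipient 1 (for the receptor genes, 7 without either 5-FU library). In these fits the lone library is assumed to vary like the other pair. A pseudocount of 0.1, quantile scaling and TPM scaling each left 1 pathway gene higher in place of 2. Apart from the counts given here, the causes were not tested.

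With the replicate number as a block 855 genes were higher and 539 lower, with 6 receptor genes lower, Tlr4 being added, and 2 and 11 pathway genes. Of the pathway genes named, Nfkbie and Nfkbia lost their calls under the block (adjusted p = 0.058 and 0.11 in limma-trend), so the 11 are not the same genes. Same-numbered libraries deviated from their group means at r = −0.159 across genes, and the labels name nothing that the numbers pair. A crossed block, added after seeing the data, gave 1686 higher and 1365 lower genes, 8 receptor genes lower and 28 pathway genes lower. Genes under about 1 FPKM, such as Tlr9, rest on few reads, and 2 libraries a group limit all comparisons.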
